A study of Mus musculus with 12 samples.

Results

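The genes described here encode the machinery that brings nuclear-encoded proteins into mitochondria and the chaperones and proteases that fold, trim and degrade them there. Members were taken from the deposited count table by symbol: every Tomm or Timm symbol followed by a digit, and 20 named genes (Hspd1, Hspe1, Hspa9, Trap1, Lonp1, Clpp, Clpx, Afg3l2, Spg7, Htra2, Pmpca, Pmpcb, Mipep, Pam16, Dnajc19, Grpel1, Grpel2, Dnaja3, Chchd4 and Gfer). This gave 46 of the 32285 genes in the table, of which 44 had enough counts to be tested among 15229 tested genes. The rule itself uses only symbols. One member, Tomm6os, is an antisense RNA that overlaps Tomm6 and encodes no import protein.

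Most mitochondrial proteins are made in the cytosol and cross the outer membrane through the TOM complex. The TIM23 complex and its Hsp70-driven motor then pull those with a cleavable presequence into the matrix, where peptidases remove the presequence and chaperones fold the product. The TIM22 complex and the small TIM chaperones serve carrier proteins, the disulfide relay traps small proteins in the intermembrane space, and matrix and inner-membrane proteases remove what is damaged.

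The tissue was the soft central part of the tail's intervertebral discs (caudal nucleus pulposus), taken from 12-month-old mice of a C57BL/6-129/SvEv background. In the 6 Opa1cKO mice, AcanCre, a tamoxifen-activated recombinase, was used to delete Opa1, an inner-membrane fusion GTPase, at 3 months of age in disc and cartilage, and the mice then aged 9 months further. The other 6 mice are labelled WT, with no statement on whether they carry Cre or floxed alleles, and both genotypes had received tamoxifen at 100 mg/kg on 3 consecutive days. Each library came from 1 mouse, so the replicate error below is the spread between mice. Since these are bulk samples, fewer cells of a type and less RNA per cell cannot be told apart.

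Opa1 itself averaged 102 ± 17.3 CPM (counts scaled by library total and TMM factor; SD, n = 6) in WT and 40.6 ± 6.30 CPM in Opa1cKO, without overlap (edgeR adjusted p = 3.05e-05). The smallest library held 37268242 counts and the largest 56618266, which puts 1 CPM at about 37 to 57 counts. These counts may include PCR copies of the same molecule. The notochordal marker T and the keratin Krt19, which define nucleus pulposus cells, were abundant in both genotypes (2719 ± 245 and 2097 ± 456 CPM in WT, 2882 ± 274 and 2095 ± 570 CPM in Opa1cKO). None of the 9 tested genes of the nucleus pulposus list was called in edgeR. Foxa2 was 6.87 ± 2.48 CPM in WT and 3.15 ± 2.17 CPM in Opa1cKO (log2 fold change -1.08, edgeR adjusted p = 0.106). Foxa1, Cd24a and Krt19 gave -0.40, -0.34 and -0.04, and T, Krt8, Krt18, Car3 and Shh were positive. Erythroid and adipocyte marker lists summed to at most 2.41 and 1.04 CPM in any library, and the muscle list to 1.26 to 15.9 CPM in WT and 1.65 to 16.7 CPM in Opa1cKO. No gene of the muscle, annulus, chondrocyte, endothelial, keratinocyte or bone lists was called in edgeR. Their most abundant genes in WT were Acta1 (2.2 ± 2.62 CPM), Col1a1 (236 ± 79.2), Acan (13062 ± 2325), Pecam1 (1.66 ± 0.505), Krt10 (2.47 ± 0.383) and Ctsk (55.1 ± 4.15), and Car3 (28954 ± 3365) led the nucleus pulposus list. In the chondrocyte list Acan was 8628 ± 2968 CPM in Opa1cKO (log2 fold change -0.53, edgeR adjusted p = 0.103). Col2a1 was 608 ± 152 CPM in WT and 1261 ± 971 CPM in Opa1cKO (1.14, edgeR adjusted p = 0.109). Comp, Matn3, Col9a1 and Sox9 gave 0.80, 0.96, 0.46 and 0.20. Of 5 macrophage markers, 3 were tested, of which Cd68 was higher (log2 fold change 1.28, edgeR adjusted p = 0.000152) and Csf1r lower (-0.88, edgeR adjusted p = 0.00468). Ptprc, a marker of all leukocytes, and Adgre1, the macrophage marker F4/80, stayed at or below 0.26 CPM on average. By label, WT 1 to 4 were female and WT 5 and 6 male. Opa1cKO 1 to 4 were labelled male and Opa1cKO 5 and 6 female. Sex-linked counts contradicted the labelled sex in 4 libraries: WT 4 read as male and WT 5, WT 6 and Opa1cKO 4 as female. By reads, WT 4 was the only male WT library, and Opa1cKO 1, 2 and 3 were male. Sex was thus unbalanced between the genotypes by label and by reads. The main model used labelled sex.

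Transcripts of the import and quality control machinery differed little between the genotypes. Of the 44 tested members, 1 fell and 0 rose at a Benjamini-Hochberg adjusted p below 0.05 (edgeR), or 2.27% of the tested members, where 10.2% of all tested genes were called. The gene that fell was Dnajc19, a J-domain cochaperone at the inner membrane. For single directions the background was 5.1% of genes called higher and 5.13% called lower. At an unadjusted p below 0.05, 5 members passed (4 higher, 1 lower), or 11.4% of the members against 25.2% of all genes, and DESeq2 and limma-voom also called 0 members higher and 1 lower.

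Members moved little in either direction. Their log2 fold changes ran from -0.51 (Dnajc19) to 0.57 (Timm8a1), 24 positive and 20 negative, with a median of 0.01 beside 0.01 over all tested genes. The median size regardless of sign was 0.10 on the log2 scale for members and 0.18 for all tested genes. A change smaller than 0.25 on the log2 scale was measured for 40 of the 44 members (90.9%), against 60.6% of all tested genes. The 95% confidence interval of the fold change lay entirely within 2-fold for 43 of the 44 members and within 1.5-fold for 39. For those genes the interval leaves out any larger difference in either direction. The median SE was 0.11 for members and 0.14 for all genes. Mean levels of the tested members ran from 1.45 CPM (Timm8a1) to 260.4 CPM (Hspa9).

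**Figure D1:**
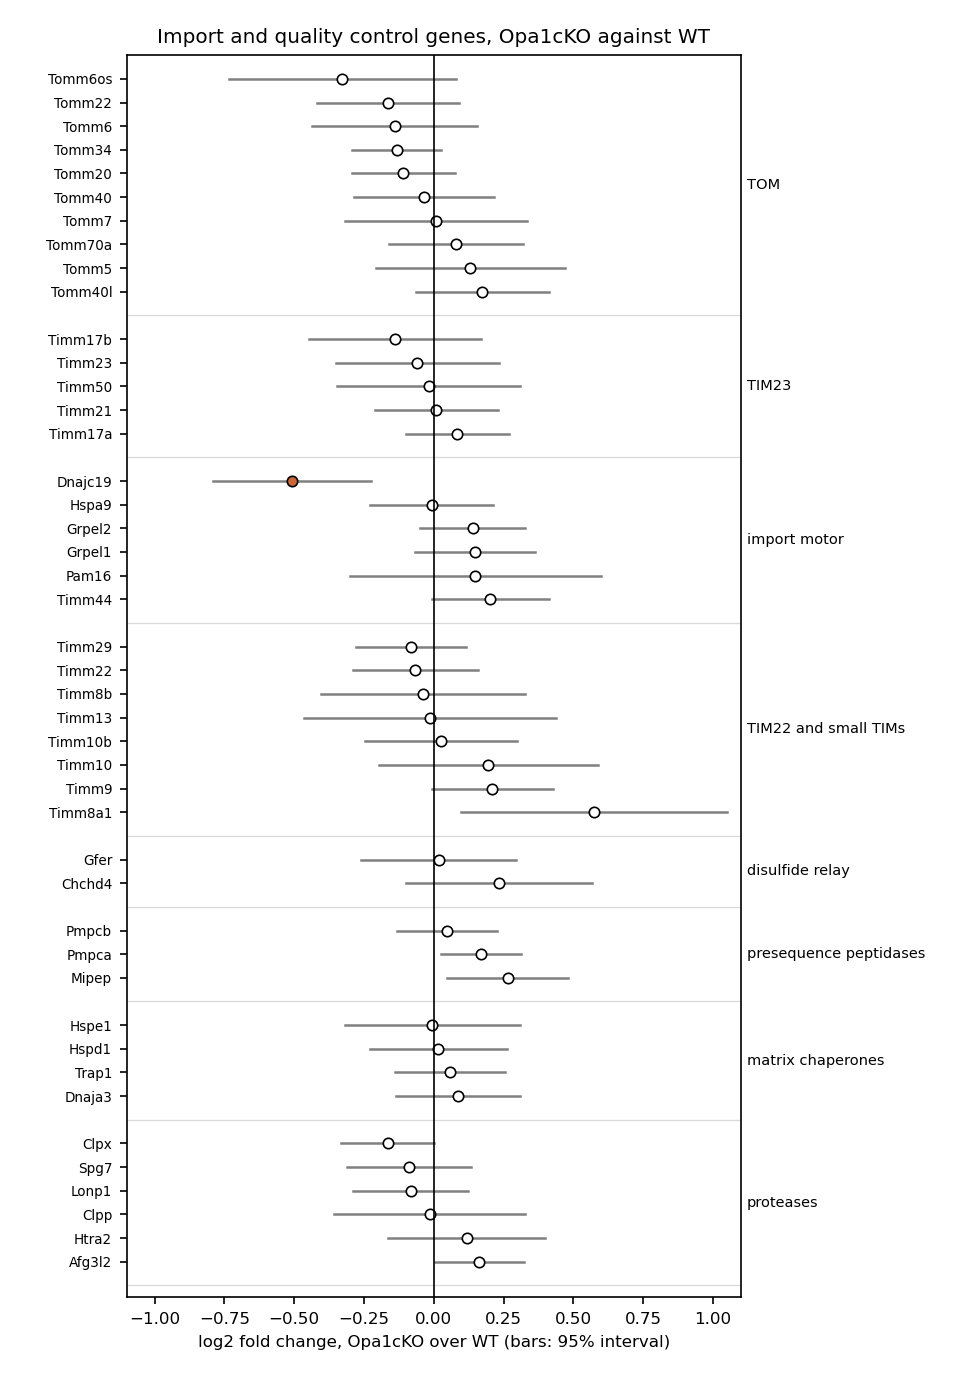
Log2 fold change of each of the 44 tested members, Opa1cKO over WT (horizontal axis), with its 95% confidence interval from edgeR (bars), grouped by role. The filled point, Dnajc19 at -0.51, is the member that passed an adjusted p below 0.05, and open points did not pass.

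Absolute abundance is best compared in the deposited TPM values, which scale for transcript length. Hspa9, the mitochondrial Hsp70 (mortalin) that drives the import motor, was the most abundant member at 276 ± 33.6 TPM in WT and 278 ± 27.8 TPM in Opa1cKO (SD, n = 6). Tomm6, a small TOM subunit, followed at 199.98 ± 29.5 and 194 ± 30.4 TPM, and Hspd1, the matrix chaperonin Hsp60, at 127 ± 17.7 and 127 ± 17.7 TPM. Timm8b, a small TIM, had 123 ± 13.6 and 124 ± 29.3 TPM, and Tomm22, the central TOM receptor, 102 ± 6.12 and 94.6 ± 15.1 TPM. In WT, the steps from Hspa9 to Tomm6 and from Tomm6 to Hspd1 exceeded the SD of either gene, and Hspd1 and Timm8b differed by less than theirs. At the low end stood Timm8a1 (3.65 ± 0.797 and 5.73 ± 0.946 TPM) and the antisense RNA Tomm6os (3.39 ± 0.685 and 2.83 ± 0.462 TPM). Tomm20l, a paralog of the receptor Tomm20, had 0 counts in 11 libraries and 1 count in Opa1cKO 6. Timm8a2, a paralog of Timm8a1, had 0 to 6 counts per library. Neither was tested.

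**Figure D2:**
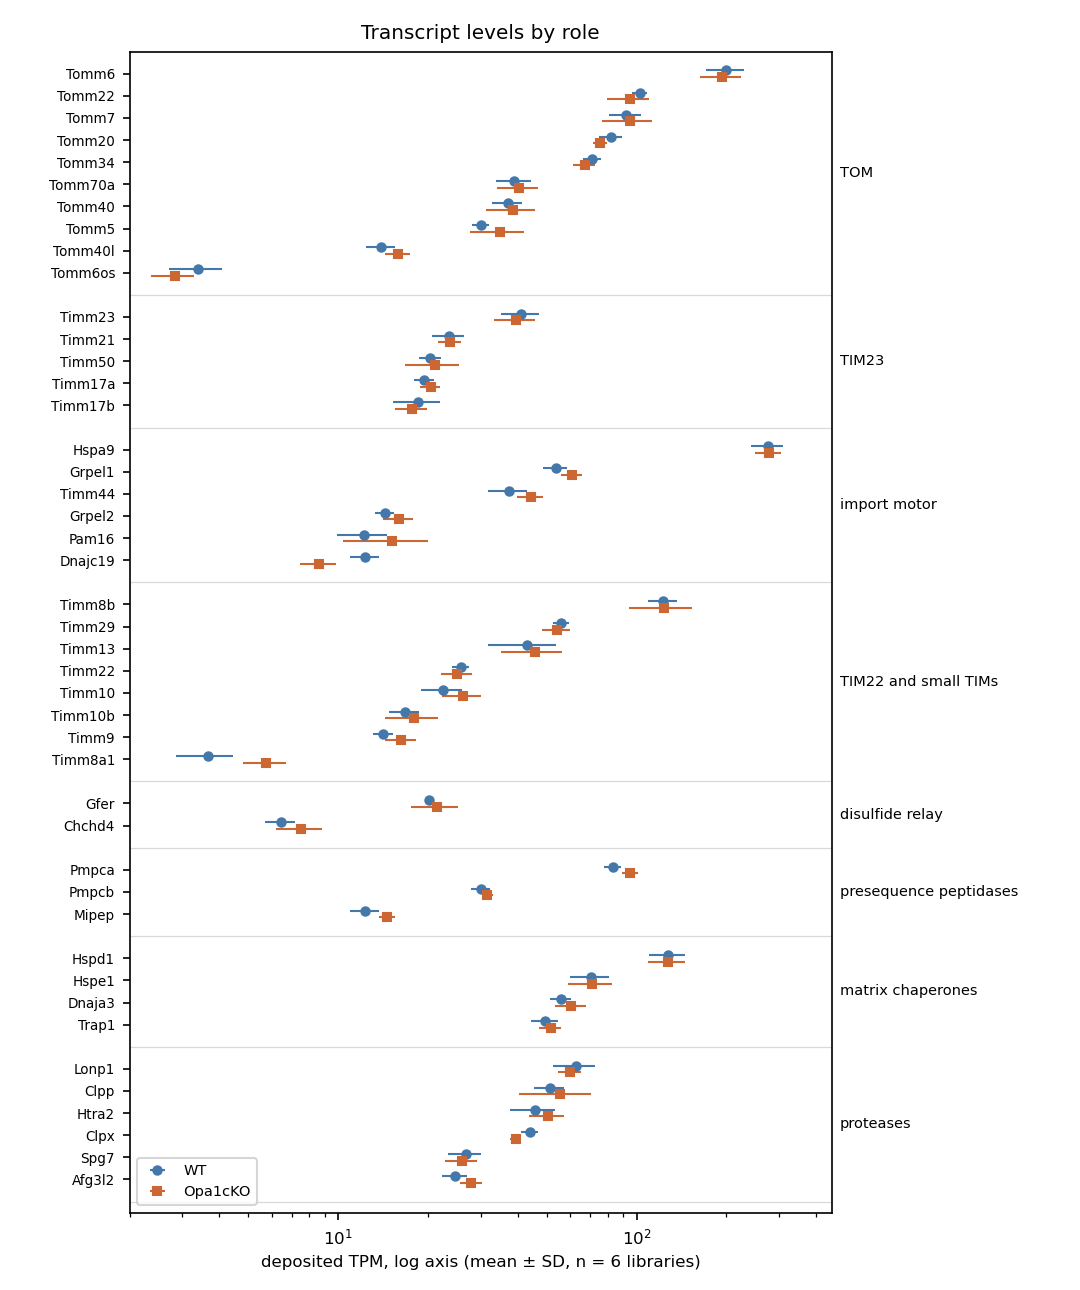
Deposited TPM of each tested member (horizontal log axis) in WT (circles) and Opa1cKO (squares), mean ± SD over 6 libraries each, grouped by role. Hspa9 (276 and 278 TPM) and Tomm6 (199.98 and 194 TPM) are highest, and for most members the error bars of the genotypes overlap.

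The import motor held the only call. Its members are Hspa9, the nucleotide exchange factors Grpel1 and Grpel2 that release Hspa9's substrate, Timm44, which tethers Hspa9 to the channel, and the J-protein Dnajc19 with its J-like regulator Pam16. In WT 1 to 6, Dnajc19 stood at 12.3, 11.4, 10.02, 12.0, 9.39 and 10.2 CPM, and in Opa1cKO 1 to 6 at 6.69, 8.39, 9.34, 6.499, 7.37 and 6.95 CPM. Every Opa1cKO library was below every WT library, the closest being Opa1cKO 3 at 9.34 CPM and WT 5 at 9.39 CPM. Dnajc19 fell by 29.7% (10.9 ± 1.17 against 7.54 ± 1.11 CPM; log2 fold change -0.51, SE 0.132, 95% interval -0.79 to -0.22, edgeR adjusted p = 0.0262). The call rests on 274 to 649 counts per library. Without the 4 libraries whose sex labels the reads contradict, the log2 fold change was -0.54 (edgeR adjusted p = 0.0773). That fit has no sex term. It sets female WT 1, 2 and 3 against male Opa1cKO 1, 2 and 3 and female Opa1cKO 5 and 6. Sex and genotype are therefore partly confounded in it. With sex taken from the reads the log2 fold change was -0.60 (edgeR adjusted p = 0.00628). The call was also lost without WT 6 (edgeR adjusted p = 0.0636), without Opa1cKO 5 (0.0572), without Opa1cKO 6 (0.103) and with the replicate block (0.0993), while the log2 fold change stayed between -0.60 and -0.45 over 27 alternatives, 22 of which kept the call.

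Dnajc19 (ENSMUSG00000027679) lies on chromosome 3, 34056020 to 34081321, on the minus strand of mm10. Its exons share 178 bases with Fxr1 on the opposite strand, 4.42% of its exon length, and 1 processed copy, Dnajc19-ps, is annotated. Fxr1, an RNA-binding protein gene, stood at 144 ± 10.3 CPM in WT and 140.2 ± 14.8 CPM in Opa1cKO (log2 fold change -0.02, edgeR adjusted p = 0.929). Among the members Dnajc19 has the lowest transcript GC content, 40.3%. With each library's GC slope as a covariate, an alternative chosen after seeing the data, its log2 fold change was -0.48 (edgeR adjusted p = 0.0241). The window of 250 bases before its start (RefSeq, GRCm38.p6, chr3:34081355-34081604, minus strand) is shown because Dnajc19 is the member that changed; capitals mark the CCAAT box, read here as its reverse complement.
Dnajc19: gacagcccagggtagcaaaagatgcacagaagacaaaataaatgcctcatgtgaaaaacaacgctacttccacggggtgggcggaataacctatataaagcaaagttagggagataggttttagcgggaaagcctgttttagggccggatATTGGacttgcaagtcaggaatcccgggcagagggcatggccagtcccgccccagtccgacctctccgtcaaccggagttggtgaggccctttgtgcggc

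The other motor genes did not pass. Timm44 stood at 27.3, 24.9, 29.9, 32.2, 35.2 and 30.9 CPM in WT 1 to 6 and at 38.5, 35.7, 29.7, 34.9, 37.4 and 34.7 CPM in Opa1cKO 1 to 6. The ranges overlapped, since Opa1cKO 3 lay among the WT values and WT 5 among the Opa1cKO values, and the log2 fold change was 0.20 (SE 0.0979, edgeR adjusted p = 0.215). Hspa9 gave a log2 fold change of -0.01 (95% interval -0.23 to 0.21), from 232 to 299 CPM in WT and 241 to 321 CPM in Opa1cKO. Grpel1 and Grpel2 gave 0.15 and 0.14 (edgeR adjusted p = 0.391 and 0.343), and Pam16 0.15 with a wide interval of -0.30 to 0.60. Dnajc15, a paralog of Dnajc19 that was not chosen as a member, was 17.0 ± 1.73 CPM in WT and 16.9 ± 2.91 CPM in Opa1cKO (log2 fold change -0.03, edgeR adjusted p = 0.925).

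The TOM genes showed no call among the 10 tested. With the antisense RNA Tomm6os and the cytosolic cochaperone Tomm34 set aside, 4 had a negative and 4 a positive log2 fold change. Tomm22 gave -0.16 (SE 0.119), Tomm34 -0.13 (SE 0.0747), and the presequence receptor Tomm20 -0.11 (SE 0.0865), with edgeR adjusted p = 0.417, 0.286 and 0.462. Tomm70a, the receptor for carrier proteins, gave 0.08, and the pore Tomm40 -0.03, with the pore paralog Tomm40l at 0.17. The small subunits Tomm5, Tomm6 and Tomm7 gave 0.13, -0.14 and 0.01. The antisense RNA Tomm6os gave -0.33 (SE 0.190, edgeR adjusted p = 0.302). It shares 219 exon bases with Tomm6 and 1221 with Prickle4, both on the other strand. The sources used here do not give the strand setting of the counting. Of the exon bases of Tomm40l, 64.3% are shared with the nuclear receptor gene Nr1i3 on the other strand, so its counts are uncertain in the same way. Of the exon bases of Tomm6, 75.95% lie in the predicted gene Gm21981 on the same strand.

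The TIM23 channel was also without a call in its 5 genes. Timm23, the channel subunit, gave a log2 fold change of -0.06 (95% interval -0.35 to 0.23) and Timm50, the presequence receptor of the inner membrane, -0.02 (-0.35 to 0.31). Timm21 gave 0.01. The alternative channel partners Timm17a and Timm17b gave 0.08 and -0.14. Timm17a took 51.4% ± 5.69 (SD, n = 6) of the pair's summed TPM in WT and 53.7% ± 4.46 in Opa1cKO, ranging from 45.7% to 58.8% and from 46.8% to 59.1%. The pair was thus near an even split in both genotypes, with overlapping ranges. Tomm40 took 72.5% ± 4.38 and 70.5% ± 3.70 of its sum with Tomm40l, and Grpel1 78.7% ± 2.12 and 79.1% ± 2.53 of its sum with Grpel2. Timm8a1 took 95.6% ± 4.87 and 95.8% ± 4.31 of its sum with Timm8a2, and Tomm20 at least 99.8% of its sum with Tomm20l in every library.

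Among the TIM22 complex and the small TIMs, Timm8a1 had the largest positive change of any member. It encodes a chaperone of the intermembrane space, the mouse counterpart of the human deafness-dystonia gene, and lies on chromosome X, 134537256 to 134541865. In WT 1 to 6 it stood at 1.37, 0.929, 0.738, 1.2, 1.26 and 1.36 CPM, and in Opa1cKO 1 to 6 at 2.16, 1.52, 1.42, 2.05, 1.80 and 1.64 CPM. All Opa1cKO values lay above all WT values, the closest being Opa1cKO 3 and WT 1, on 34 to 106 counts per library. The log2 fold change was 0.57 (SE 0.222, 95% interval 0.10 to 1.05, unadjusted p = 0.0220 and adjusted p = 0.120 with edgeR), so it did not pass. Over 27 alternatives the log2 fold change ran from 0.49 to 0.75 and the adjusted p from 0.0603 to 0.251. With sex taken from the reads it was 0.64 (edgeR adjusted p = 0.0857). Complete separation of the genotypes occurred in 3 of the 44 members (6.82%), Dnajc19, Timm8a1 and Pmpca, beside 6.41% of all tested genes (3.64% lower and 2.77% higher in Opa1cKO).

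Timm9 gave 0.21 (SE 0.101, edgeR adjusted p = 0.216) and its partner Timm10 0.19 (SE 0.183, edgeR adjusted p = 0.547). In WT 1 to 6 Timm9 stood at 14.0, 14.0, 13.2, 13.9, 12.9 and 11.9 CPM, and in Opa1cKO at 16.4, 15.5, 16.4, 11.9, 15.01 and 15.3 CPM. Opa1cKO 4, whose reads contradict its sex label, held the lowest Timm9 value of all 12, and the other 5 Opa1cKO libraries were above every WT library. Timm13, Timm8b and Timm10b gave -0.01, -0.04 and 0.03, and the TIM22 subunits Timm22 and Timm29 gave -0.07 and -0.08. In the disulfide relay, the oxidoreductase Chchd4 (MIA40) gave 0.23 (SE 0.155, edgeR adjusted p = 0.372) and Gfer, which reoxidises it, 0.02.

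The 3 presequence peptidases had positive log2 fold changes, and none passed in the edgeR fit. Pmpca, the substrate-binding subunit of the matrix processing peptidase, stood at 77.1, 78.2, 76.4, 82.7, 76.3 and 78.3 CPM in WT 1 to 6 and at 94.8, 85.1, 95.9, 83.7, 85.0 and 85.8 CPM in Opa1cKO 1 to 6. The groups did not overlap, with WT 4 closest to the Opa1cKO libraries. The difference was 12.4% (log2 fold change 0.17, SE 0.0663, 95% interval 0.03 to 0.31, edgeR adjusted p = 0.125). Exons of Pmpca share 874 bases with Inpp5e on the opposite strand, 20.4% of their length, and Inpp5e gave 0.14 (edgeR adjusted p = 0.362). Pmpcb, the catalytic partner, gave 0.05 (95% interval -0.13 to 0.22).

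Mipep, which removes an octapeptide from some imported proteins after the processing peptidase, stood at 17.5, 16.4, 13.7, 14.3, 12.3 and 13.6 CPM in WT 1 to 6 and at 16.7, 16.5, 18.3, 16.7, 16.1 and 17.8 CPM in Opa1cKO 1 to 6. WT 1 and WT 2 lay within the Opa1cKO range and the other 4 WT libraries below it. The log2 fold change was 0.26 (SE 0.101, edgeR adjusted p = 0.114). It was 0.10 (edgeR adjusted p = 0.673) without the 4 libraries whose sex labels the reads contradict, 3 of which are WT libraries at 12.3 to 14.3 CPM. The fit without those libraries has no sex term.

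The matrix chaperones were level. Hspd1 stood at 80.2, 86.6, 63.2, 80.9, 66.3 and 66.1 CPM in WT 1 to 6 and at 71.1, 66.6, 91.05, 64.0, 65.3 and 78.5 CPM in Opa1cKO 1 to 6. Its cochaperonin Hspe1 (Hsp10) stood at 29.7, 24.8, 18.9, 21.6, 22.5 and 19.5 CPM and at 21.8, 19.9, 30.3, 21.7, 19.0 and 23.2 CPM. Both genes had their highest Opa1cKO value in Opa1cKO 3, and the genotypes overlapped over nearly their whole range. The log2 fold change was 0.02 for Hspd1 (95% interval -0.23 to 0.26) and -0.01 for Hspe1 (-0.32 to 0.31). Trap1, the mitochondrial Hsp90, gave 0.06 (-0.14 to 0.25) and Dnaja3, a J-protein of the matrix, 0.08 (-0.14 to 0.31). Processed copies are annotated by name for Hspd1 (5), Hspe1 (6) and Hspa9 (1). The sources used here do not give how reads shared with them were counted.

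Of the 6 proteases, none passed in the edgeR fit, and 1 had an unadjusted p below 0.05. Afg3l2, a subunit of the matrix-facing AAA protease, stood at 52.9, 56.6, 47.2, 57.9, 52.0 and 53.8 CPM in WT 1 to 6 and at 59.9, 59.4, 59.4, 60.8, 54.0 and 64.9 CPM in Opa1cKO 1 to 6. Opa1cKO 5 lay within the WT range and the other 5 Opa1cKO libraries above it. The log2 fold change was 0.16 (SE 0.0750, unadjusted p = 0.0471, edgeR adjusted p = 0.192). Its partner Spg7 (paraplegin) gave -0.09, and Afg3l2 took 48.1% ± 4.69 of the pair's TPM in WT and 51.9% ± 1.92 in Opa1cKO.

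Clpx, the unfoldase of the Clp protease, stood at 37.5, 34.0, 29.8, 33.9, 32.5 and 34.7 CPM in WT 1 to 6 and at 28.8, 27.5, 31.1, 29.7, 31.3 and 30.4 CPM in Opa1cKO 1 to 6. WT 3 lay among the Opa1cKO libraries and the other 5 WT libraries lay above all of them. The log2 fold change was -0.17 (SE 0.0779, edgeR adjusted p = 0.203). Clpp, the peptidase that Clpx feeds, gave -0.01 with a wider interval (-0.36 to 0.33), Lonp1, the main soluble matrix protease, -0.08, and the intermembrane space protease Htra2 0.12.

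**Figure D3:**
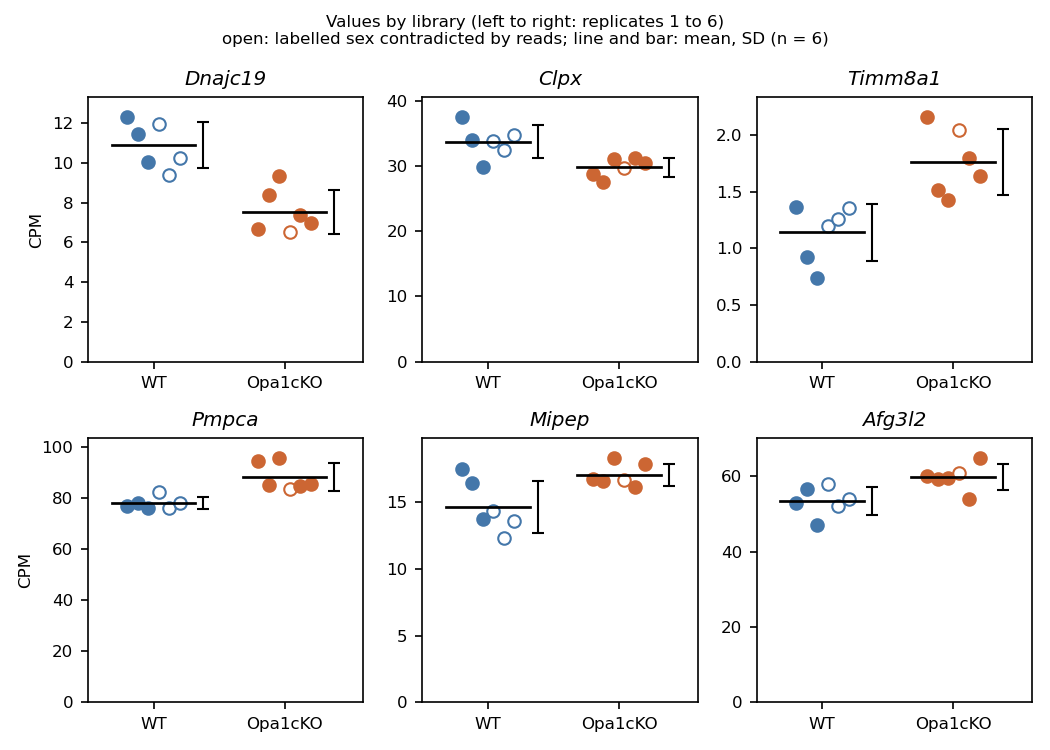
CPM (vertical axes, from 0) of Dnajc19, Clpx, Timm8a1, Pmpca, Mipep and Afg3l2 in each library, left to right replicates 1 to 6, with the mean and SD over 6 mice. Open symbols are the 4 libraries whose sex-linked counts contradict the labelled sex, and the genotypes separate completely for Dnajc19, Timm8a1 and Pmpca.

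Partner genes were compared over the 12 libraries for 8 pairs whose products work together, with Benjamini-Hochberg adjustment over the pairs. Hspd1 and Hspe1 varied together, with Pearson's r = 0.813 (permutation p = 0.00098, adjusted p = 0.00784) and Spearman's rho = 0.783 (permutation p = 0.00382, adjusted p = 0.0306). Within genotypes r was 0.702 in WT (exact permutation p = 0.133, n = 6) and 0.923 in Opa1cKO (exact permutation p = 0.0125, n = 6), and it was 0.697 without Opa1cKO 3 and WT 2, the libraries farthest from the median of Hspd1. Timm23 and Timm17a gave r = 0.717 (permutation p = 0.00966, adjusted p = 0.0386) and rho = 0.678 (permutation p = 0.0180, adjusted p = 0.0720). Their r was 0.879 in WT (exact permutation p = 0.0583, n = 6), 0.722 in Opa1cKO (exact permutation p = 0.115, n = 6) and 0.864 without Opa1cKO 5 and Opa1cKO 3.

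The other 6 pairs did not pass. Clpp and Clpx gave r = -0.30 (permutation p = 0.345, adjusted p = 0.394) and rho = -0.37 (permutation p = 0.236, adjusted p = 0.244), and r was -0.30 without Opa1cKO 6 and Opa1cKO 1. Afg3l2 and Spg7 gave r = -0.27 (permutation p = 0.397, adjusted p = 0.397) and rho = -0.36 (permutation p = 0.244, adjusted p = 0.244). Within genotypes their r was -0.72 in WT (exact permutation p = 0.0972, n = 6) and 0.63 in Opa1cKO (exact permutation p = 0.164, n = 6). For Pmpca with Pmpcb it was -0.11 in WT (exact permutation p = 0.817) and 0.80 in Opa1cKO (exact permutation p = 0.0792). The other pairs that did not pass had the same sign in both genotypes. Hspa9 with Grpel1, Pmpca with Pmpcb, Timm9 with Timm10 and Timm8a1 with Timm13 gave r from 0.362 to 0.490, with adjusted permutation p from 0.251 to 0.329. Leaving out Opa1cKO 1 and Opa1cKO 3 brought r to 0.0488 for Timm9 with Timm10 and to -0.03 for Pmpca with Pmpcb, so those values rest on these libraries.

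**Figure D4:**
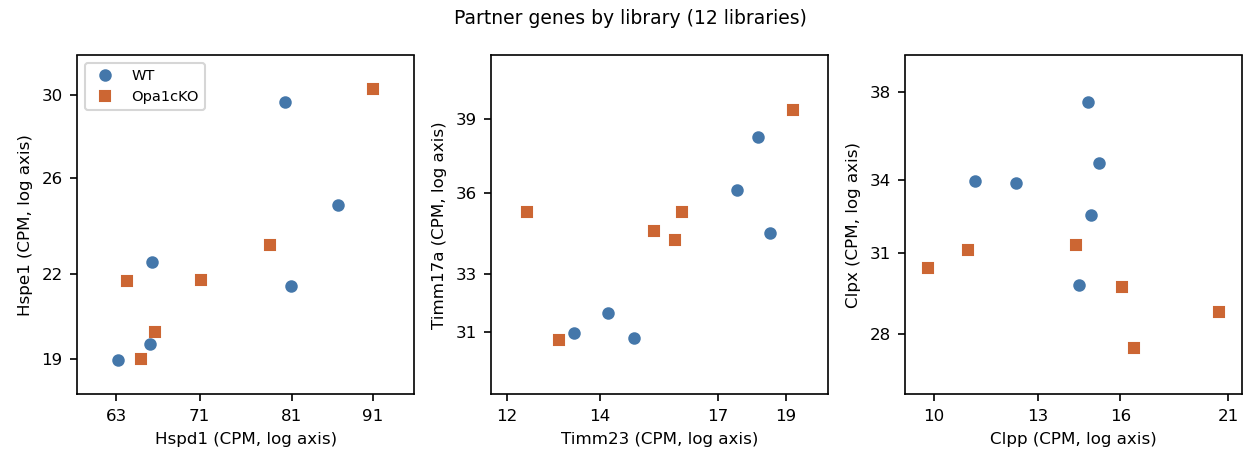
CPM on log axes of Hspd1 and Hspe1, Timm23 and Timm17a, and Clpp and Clpx in the 12 libraries (WT circles, Opa1cKO squares). The first 2 pairs rise together (r = 0.813 and 0.717), with Opa1cKO 3 at the upper right of both, and Clpp and Clpx show no detectable relation (r = -0.30).

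Hspd1 and Hspe1 stand head to head on chromosome 1, Hspd1 at 55077835 to 55088243 on the minus strand and Hspe1 at 55088132 to 55091307 on the plus strand, and their annotated exons share 112 bases on opposite strands. The windows of 250 bases before the RefSeq starts of the 2 genes hold the same heat shock element (GAANNTTC, a palindrome), which lies 84 bases before the Hspe1 start and 139 before the second of the 2 listed Hspd1 starts. Timm9 holds the only other match among the 38 member genes with a window, 197 bases before its start. Both are shown with 11 bases on each side, capitals marking the element (RefSeq, GRCm38.p6; chr1:55088053-55088082, plus strand, and chr12:71136854-71136883, minus strand).
Hspd1-Hspe1: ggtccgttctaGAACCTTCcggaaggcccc
Timm9: taggctttctaGAAATTTCgacagattccg
Capitals mark only the searched pattern GAANNTTC. In lower case, ttc stands 2 bases before it in both stretches, and gaa 2 bases after it in Hspd1-Hspe1. GAANNTTC occurs in 3 of the 41 windows matched to 38 member genes (7.32%). It occurs in 6.69% of all 32851 windows of that length, a share near that of the member windows. Longer runs that include such further triplets were not searched for or counted. A match is a description of the letters and not of binding.

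Across the 41 windows of the 38 matched member genes, the NRF1 motif, searched on both strands, was found in 6, or 14.6% beside 3.74% of all windows. The other members had no matched window and were not searched. NRF1 is a transcription factor known for its targets among nuclear genes for mitochondrial proteins. The matches are shown, motif in capitals with up to 10 bases on each side, because this motif's share stood farthest above that of all windows (RefSeq, GRCm38.p6; Tomm20 chr8:126945922-126945951, minus strand; Pam16 chr16:4624947-4624971, minus; Chchd4 chr6:91473600-91473629, minus; Hspd1 chr1:55088283-55088312, minus; Dnaja3 chr16:4684012-4684041, plus; Spg7 chr8:123065432-123065461, plus).
Tomm20: gggtccatctGCGCGTGCGCaccaggcgtt
Pam16: tcgcgtccttGCGCACGCGCtctcc
Chchd4: tttcactggtGCGCGTGCGCgctgcaagat
Hspd1: gccgcgcagcGCGCAGGCGCactcagcccc
Dnaja3: ggagaccgagGCGCGTGCGCaatgcttacg
Spg7: cttcaaccccGCGCAAGCGCaaagggaggc
These 6 genes gave log2 fold changes of -0.11, 0.15, 0.23, 0.02, 0.08 and -0.09 in the order shown, none past the threshold in edgeR. The ETS site (CCGGAAGT or ACTTCCGG) was found in 9.76% of member windows and 2.88% of all windows, the hypoxia response core (ACGTG or CACGT) in 26.8% and 16.6%, and the CCAAT box (CCAAT or ATTGG) in 29.3% and 33.8%. The cyclic AMP response element TGACGTCA was found in 1 member window (Trap1), 2.44% beside 1.55%, and the amino acid response element (TGATGNAA or TTNCATCA) in 0 of 41, beside 3.45% of all windows. Base composition was not matched in these shares.

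Libraries of one genotype varied along an axis that many members shared. After subtraction of each genotype's mean, the first axis of the 44 members held 37.7% of their variance. Timm13, Clpp, Pam16, Tomm40 and Timm50 lay at one end and Hspd1, Tomm70a, Hspe1, Timm23 and Chchd4 at the other. The loading correlated with transcript GC content at r = 0.734 across the 44 members, which run from 40.3% to 60.1% GC and share the same libraries. Each library's GC slope was fitted over the tested genes other than the members. After subtraction of the genotype's mean slope, it correlated with the library's score on this axis at r = 0.946 and rho = 0.839 over the 12 libraries. Without WT 2 and Opa1cKO 3, r was 0.912, as a description of these libraries. WT 2 and Opa1cKO 3 had the lowest scores and GC slopes of -0.28 and -0.14 before that subtraction (log2 per 10% of GC), and Hspd1 and Hspe1 lay above their genotype's mean in both. Timm23 and Timm17a, with loadings of -0.20 and -0.12, also lay above their genotype's mean in both libraries. The part of base composition in the shared variation of Hspd1 with Hspe1, or of Timm23 with Timm17a, was not tested. With the GC slope as a covariate 0 members rose and 1 fell, as without it. Over all tested genes that fit called 1044 higher and 1076 lower, against 777 and 781 without the covariate. Before the genotype's mean was subtracted, GC slopes ran from -0.28 to 0.08 in WT and from -0.14 to 0.18 in Opa1cKO.

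**Figure D5:**
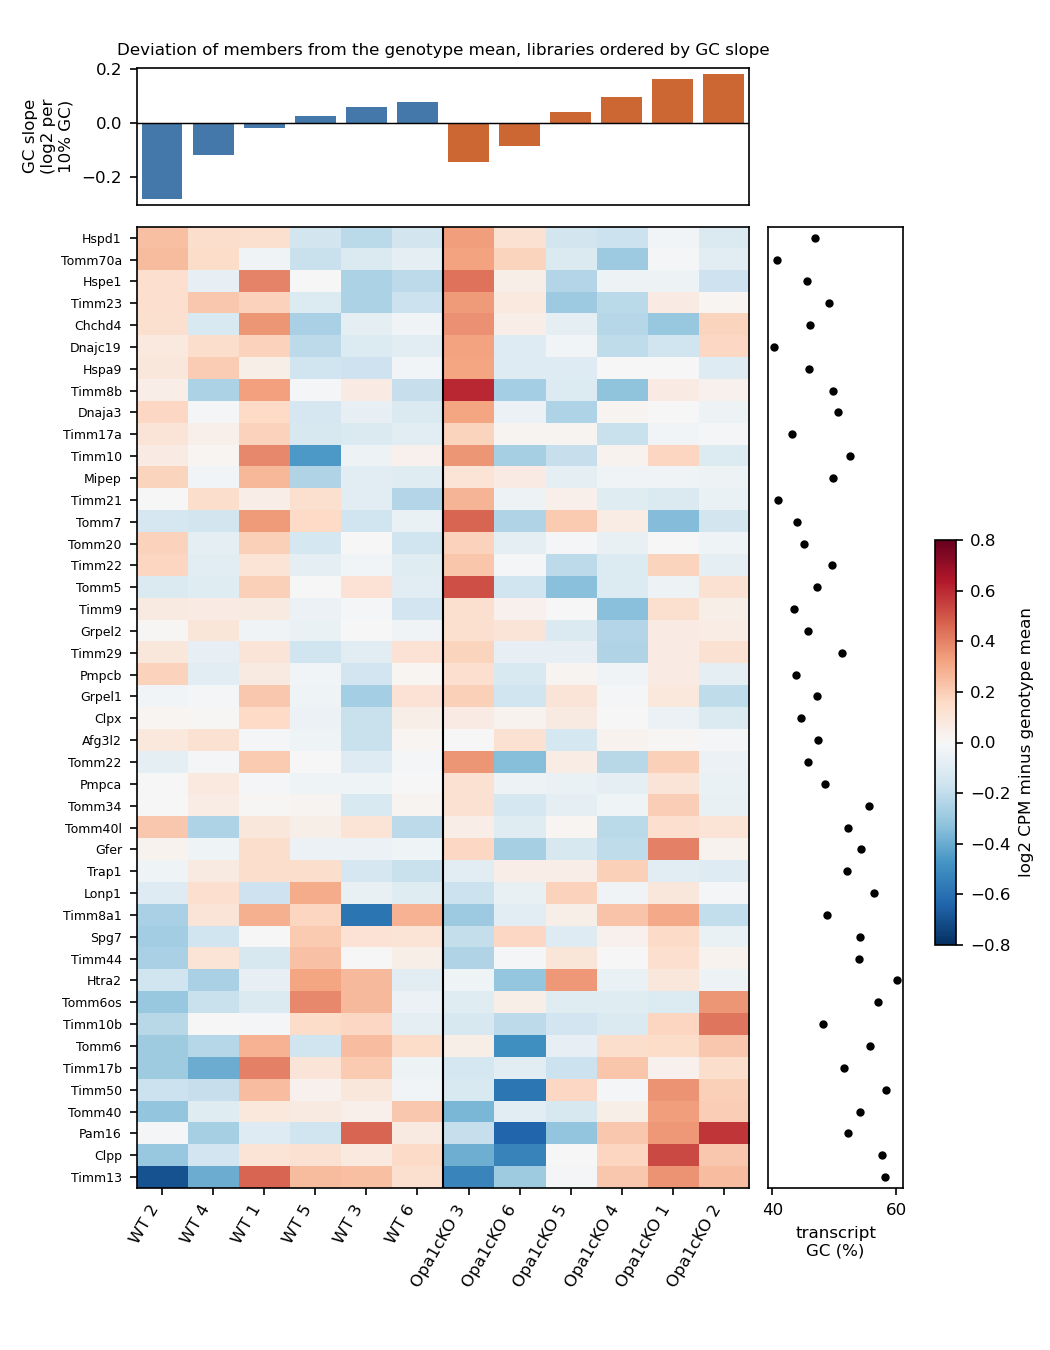
Deviation of each tested member from its genotype's mean (log2 CPM, colour) in each library, members ordered by their position on the first axis, with the library's GC slope above (bars, log2 per 10% GC, orange for Opa1cKO) and each member's transcript GC content at the right. Most members at the bottom, which are GC-rich, are low and most at the top high in WT 2 and Opa1cKO 3, the libraries with the most negative slopes.

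A further 38 genes of import, inner-membrane quality control and the mitochondrial stress response were set beside the members, all of them tested. Of these, 1 rose and 1 fell (5.26%), where 10.2% of all tested genes were called in edgeR. Their median log2 fold change was -0.02, beside 0.01 over all tested genes. At an unadjusted p below 0.05 in edgeR, 23.7% of the list passed, beside 25.2% of all tested genes. Nln, neurolysin, a metallopeptidase found in mitochondria and cytosol, stood at 14.8, 17.5, 15.6, 18.1, 17.1 and 14.8 CPM in WT 1 to 6 and at 24.3, 18.8, 20.6, 21.5, 21.01 and 23.0 CPM in Opa1cKO 1 to 6. The genotypes did not overlap, and Nln rose by 0.42 on the log2 scale (SE 0.0953, edgeR adjusted p = 0.0139). The call of Nln held in 22 of 27 alternatives. It was lost without WT 6 (edgeR adjusted p = 0.0566), without Opa1cKO 6 (0.0570), without Opa1cKO 6 and with sex from the reads (0.0551), without the 4 libraries whose sex labels the reads contradict (0.0818) and with the replicate block (0.0901).

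Stress regulators and proteases that act on Opa1 gave no call in the edgeR fit with labelled sex. Atf4, the integrated stress response factor, stood at 165 ± 37.3 CPM in WT and 225 ± 31.2 CPM in Opa1cKO (log2 fold change 0.35, SE 0.119, edgeR adjusted p = 0.0770). It passed in 3 of 27 alternatives, among them the fit without the 4 libraries whose sex labels the reads contradict (log2 fold change 0.67), which has no sex term. Atf5 and Ddit3, other factors of this response, gave -0.43 (SE 0.254) and 0.03 (SE 0.230). Oma1 and Yme1l1, the proteases that cut Opa1, gave -0.17 (SE 0.126, edgeR adjusted p = 0.440) and -0.10 (SE 0.0820, edgeR adjusted p = 0.501). The prohibitin gene Phb gave -0.31 (SE 0.104, edgeR adjusted p = 0.0720) and passed in 4 of 27 alternatives, among them the fit without those 4 libraries (-0.45, edgeR adjusted p = 0.0413). Mtx1, an outer-membrane import protein, ran from 10.3 to 27.8 CPM in WT and from 13.3 to 58.4 CPM in Opa1cKO (log2 fold change 1.01, SE 0.361, edgeR adjusted p = 0.0998). Mtx1 passed in 3 of 27 alternatives, among them sex from the reads (1.26, edgeR adjusted p = 0.0249), and was 0.60 without Opa1cKO 5 (edgeR adjusted p = 0.286). Msrb2 gave -0.92 (SE 0.303, edgeR adjusted p = 0.0683), passed in 4 of 27 alternatives, and was -0.55 without WT 5 (edgeR adjusted p = 0.285). Mtch1 gave -0.24 (SE 0.0907, edgeR adjusted p = 0.111) and passed in 1 of 27, with the GC slope (edgeR adjusted p = 0.0486). The inner-membrane insertase Cox18 gave 0.37 (SE 0.160, edgeR adjusted p = 0.167), and 0.62 without the 4 libraries whose sex labels the reads contradict (edgeR adjusted p = 0.0815).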

How the data were processed

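RNA was sequenced from the nucleus pulposus of 6 WT and 6 Opa1cKO mice. Per the labels' protocols, each stranded, ribosomal-RNA-depleted library took 50 ng of RNA and 14 PCR cycles. Per the submitters' processing notes, STAR 2.7.11b aligned reads to mm10. The authors deposited whole-number read counts per gene and a TPM table. The read counter, annotation and strand setting were not given in the sources used here. Counts of overlapping genes and of genes with copies are therefore uncertain.

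The main test was edgeR 4.0.16 (R 4.3.3) on the counts, with TMM scaling, filterByExpr (minimum count 10), labelled sex and genotype in a robust quasi-likelihood model of the 12 libraries, and Benjamini-Hochberg adjusted p-values below 0.05 among 15229 genes. CPM uses TMM factors, and SE is the log2 fold change over the root of F. Correlations used log2 CPM with a prior count of 1 and 100000 permutations, or all orders within a genotype. Alternatives used DESeq2 1.42.0, limma 3.58.1 (voom, and log2 of deposited TPM plus 1 or 0.1), other scalings, filters, covariates and each library left out. Positions and GC content came from GENCODE M21, promoter windows from RefSeq.

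The members, the lists and the tests were chosen with earlier results of these data known. The rule for named genes took called members, the 6 smallest p in each direction, partner and paralog pairs, the 2 highest TPM per role and the leading genes of the further list; other members are named to account for all of them, and Dnajc15, Oma1, Yme1l1, Atf5, Ddit3, Fxr1, Inpp5e, Ptprc, Adgre1 and Krt19 were chosen after their values were seen. No 2 libraries agreed within counting error. One gene of the further list is counted but not reported here.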

Additional observations from a re-analysis of the deposited data

Results flagged for a closer look

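In 86 groups of 6 libraries tested (each of 43 genes in each genotype), 10 held a highest or lowest library set apart from the other 5 by more than Dixon's 95% limit; chance flags about 1 in 20 groups. Opa1cKO 3 was the library in 5 of the 10. It held 321 CPM of Hspa9 against 241 to 258 CPM in the other Opa1cKO libraries, 91.2 CPM of Tomm20 against 76.3 to 79.8, 30.3 CPM of Hspe1 against 19.0 to 23.2, 23.0 CPM of Timm21 against 17.6 to 19.6, and 20.7 CPM of Timm8b against 10.9 to 14.3. Opa1cKO 3 also had the highest count total and the most negative GC slope of its genotype. Their part in these values was not tested.

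The other 5 were spread over 5 libraries. In WT, Pmpca was high in WT 4 at 82.7 CPM against 76.3 to 78.3, Tomm34 low in WT 3 at 43.4 CPM against 47.4 to 49.3, and Tomm22 high in WT 1 at 42.8 CPM against 34.4 to 37.0. In Opa1cKO, Timm9 was low in Opa1cKO 4 at 11.9 CPM against 15.01 to 16.4, and Tomm6os high in Opa1cKO 2 at 2.29 CPM against 1.65 to 1.85.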

How the results depend on the processing

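The count of members that rose was 0 under every alternative run. The count that fell was 1, and was 0 without the 4 libraries whose sex labels the reads contradict, with the replicate block, and in 3 of the 12 fits without 1 library (WT 6, Opa1cKO 5 or Opa1cKO 6), whose range was 0 to 1. Replicate numbers do not pair the libraries: same-numbered libraries correlated at -0.22 to 0.04 and 0 of them matched best with their own number. With the replicate block, 351 genes rose and 418 fell in all, and 0 and 0 of the further list. Without those libraries 333 genes rose and 380 fell. DESeq2 gave 1189 higher and 1130 lower, and an adjusted p below 0.1 gave 1302 higher and 1171 lower. Without single libraries, all-gene counts ran from 323 to 1002 higher and from 496 to 1008 lower, with the lowest without Opa1cKO 6, and 463 and 510 without WT 6. On the further list the counts ran from 0 to 3 in each direction without single libraries. The further list had 2 higher and 3 lower with no sex covariate, 2 higher with sex from the reads, 2 lower without those libraries, 3 lower with DESeq2 or the GC slope, and 3 and 3 at an adjusted p below 0.1. Opa1 kept its call in all 27 alternatives, at -1.33 to -1.09 without single libraries.

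Signs of members near 0 changed, and none of these passed in any alternative. With no sex covariate the log2 fold changes were -0.0223 (Hspd1), 0.0948 (Clpp), 0.0301 (Tomm40), 0.0661 (Timm13) and -0.00195 (Timm21). With sex from the reads they were -0.0716 (Hspd1), 0.0556 (Clpp), 0.0129 (Tomm40), 0.113 (Timm13), -0.0375 (Timm21) and -0.0346 (Gfer). With sex from the reads and without Opa1cKO 6 they were -0.138 (Hspd1), 0.203 (Clpp), 0.0408 (Tomm40), 0.232 (Timm13), 0.0165 (Timm17b), 0.0448 (Tomm6) and -0.0389 (Timm21). Without the libraries whose labels the reads contradict they were -0.0442 (Hspd1), 0.00634 (Hspa9), 0.102 (Clpp), 0.0823 (Tomm40) and 0.0504 (Lonp1). With library totals only they were 0.00149 (Hspa9) and 0.00353 (Hspe1). In TPM with a pseudocount of 1 they were 0.0118 (Hspa9), 0.0129 (Hspe1) and 0.0216 (Timm13). With a pseudocount of 0.1 they were 0.0118 (Hspa9), 0.0131 (Hspe1) and 0.0224 (Timm13). With the GC slope they were 0.0306 (Hspa9) and 0.0404 (Hspe1). With limma-voom Hspe1 was 0.00148. With the replicate block Timm13 was 0.00212. The correlation of Afg3l2 with Spg7 was 0.0491 in TPM. Without single libraries they ran from -0.0914 to 0.103 (Clpp), -0.0442 to 0.0917 (Gfer), -0.0752 to 0.0322 (Hspa9), -0.0492 to 0.0959 (Hspd1), -0.0857 to 0.0874 (Hspe1), -0.163 to 0.0242 (Lonp1), -0.0939 to 0.0844 (Timm13), -0.0673 to 0.0664 (Timm21), -0.122 to 0.0529 (Timm23), -0.146 to 0.0557 (Timm8b) and -0.079 to 0.0238 (Tomm40). The cause of these changes was not tested. Depth limits Timm8a1 most among the tested members, at 34 to 106 counts.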
